A study of Mus musculus with 4 samples.

Results

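Argonaute proteins hold a small RNA and use its seed, the bases at positions 2 to 7 from the 5′ end (the 6mer seed), to find matching messenger RNAs. The small RNAs described here were the Ago-bound reads of mouse brain that the deposited annotation left without a mature miRNA name. A read sequence was a member when its miRNA field was empty of a name and its annotation named no tRNA, rRNA or messenger RNA. The rule took 23327 of 85704 sequences, and 40045 of the others carried a miRNA name. Members were 15 to 31 bases long.

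The libraries came from Ago-RP-Seq, in which a GW182 peptide that binds Ago1 to Ago4 pulls down the Argonaute complexes and the RNA they hold is sequenced. The study compared young and old brains of BL6 mice, the C57BL/6J inbred strain with no transgene or treatment given in the labels. Mice aged 2 months gave 2 libraries and mice aged 18 months gave another 2, each of cortex plus hippocampus, so that neurons, glia, vessel cells and blood cells all contributed RNA. In such bulk samples, fewer cells of a type and less RNA per cell cannot be told apart.

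As a group the members were mostly not other noncoding RNAs. The largest class among the members, by the RNA the annotation named, was miRNA hairpins: 20461 sequences (87.7%) and 94.8% of the members' reads. These sequences were assigned to a hairpin precursor and to no mature form. Of them, 17103 (83.6%) differed from a named miRNA row by 1 base and 1960 (9.58%) were exact parts of a named row. The remaining classes are Y RNAs and related RNAs (miscRNA), small nuclear and nucleolar RNAs, sequences named after piRNAs, and sequences with no match. Y RNAs are short transcripts bound by the Ro60 protein. 7SL is the RNA of the signal recognition particle, U1 and U2 work in the spliceosome, and box H/ACA snoRNAs guide pseudouridylation. ADAR enzymes turn adenosine into inosine in double-stranded RNA of the brain, miRNA precursors among them, and inosine is read as G in sequencing.

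The sequences on which the results below turn, abundant members of each kind, are given in RNA letters. For the substituted reads the capital marks the base that differs, and the unsubstituted named read stands above each. A substitution is written with the unsubstituted base, the position counted from 1 at the read's 5′ end, and the base of the member.
miR-376b-3p: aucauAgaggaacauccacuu
miR-376b-3p A6G: aucauGgaggaacauccacuu
miR-376c-3p: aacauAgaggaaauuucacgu
miR-376c-3p A6G: aacauGgaggaaauuucacgu
miR-411-5p: auaguAgaccguauagcguacg
miR-411-5p A6G: auaguGgaccguauagcguacg
miR-379-5p: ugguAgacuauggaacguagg
miR-379-5p A5G: ugguGgacuauggaacguagg
For reads that kept the reference sequence, capitals mark the 6mer seed, which a later start moves along the RNA. For miR-341-3p the named start is that of the most abundant named read that contains the member.
miR-341-3p, named start: gUCGAUCggucggucggucagu
miR-341-3p, later start: uCGAUCGgucggucggucagu
Rny1: uUCUCACuacugcacuugacuagu
Rny3: cUCCCACugcuucacuugaccagc
7SL: aUAGCGAgaccccgucucuu
U1: gUUCGCGcucuccccug
U2: aCGCAUCgaccugguauugcagu
Snora41: gGAGGAUuaugugugacagac
In the last, a 7SL read that ran past the annotated end of the gene, the capital marks the base beyond it.
7SL with 1 further base: auagcgagaccccgucucuuU

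The members held 2.26% and 2.19% of all reads in the 2-month libraries and 2.15% and 2.30% in the 18-month libraries. The exact permutation test gave p = 1, where 2 libraries against 2 cannot go below p = 0.33. Depth was 9067007 to 11388999 reads per library, recovered from the deposited values, so that 3 reads stood for 0.263 to 0.331 CPM (reads scaled to 1000000 per library). Between 17104 and 17982 members were read in a library. A set of 10352 members (44.4%) was read in all 4 libraries and carried 90.6% of the members' reads. Abundance was concentrated, since 8 sequences that averaged 100 CPM or more held 26.3% of those reads.

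Class totals were close between the ages, with the Y RNA class as the one whose libraries did not overlap. The miscRNA class summed to 245 and 225 CPM at 2 months and to 267 and 303 CPM at 18 months (235 ± 13.8 against 285 ± 25.3, SD, n = 2 each; exact permutation p = 0.33, adjusted over the 5 classes p = 1). Hairpin reads summed to 21565 and 20695 CPM at 2 months and to 20442 and 21719 CPM at 18 months. Unassigned reads ranged from 481 to 611 CPM, piRNA-named reads from 243 to 279 CPM and small nuclear and nucleolar reads from 66.8 to 96.6 CPM, each with overlapping ages.

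Among the substituted hairpin reads, A-to-G changes were 3219 of 17103 sequences (18.8%) and 48.2% of the reads. Their part of the substituted reads was 47.3% to 48.7% in the 4 libraries. The next types by reads were U-to-C with 14.3% and C-to-U with 12.4%. The substituted sequences derived from 323 named miRNAs. A substituted sequence typically stood at 0.0707% of the sum of itself and its unsubstituted form, and 169 were more abundant than that form. Position 6 alone held 30.2% of the substituted reads, and the seed positions 2 to 7 together held 46.1%. A-to-G reads at position 6 summed to 4698 CPM, beside 3792 CPM for the miR-376b-3p A6G site described below.

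To compare sites rather than single reads, all reads that shared their first 18 bases were summed, and the share with a substitution was taken at each position. Over 441 starts of at least 50 CPM there were 5660 sites with a median share of 0.0408%. At 22 sites the share reached 2%, and 18 of these were A-to-G. Substituted reads at those 18 sites summed to 5453 CPM, beside 8416 CPM for all A-to-G substituted hairpin sequences. Few sites thus made most of the A-to-G reads. A miRNA read from 2 starts can place the same base at more than 1 site. Of the A-to-G sites, 14 lay in a single RefSeq hairpin of the same name (build GRCm38.p6) at 12 distinct bases, 8 of them on chromosome 12. The base before the A was U at 13 of the 18 sites (72.2%), against 22.9% of all 1766 A's in the same starts. The 3 letters UAG stood at 6 of the 18 (33.3%) and at 6.63% of those A's. None of these substituted starts was the start of another mouse miRNA in the RefSeq table used. Whether the G came from editing, from the genome or from sequencing was not tested.

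The highest shares were found in miRNAs of the imprinted cluster on chromosome 12. miR-376b-3p carried A6G, at chr12:109723513-109723513 on the plus strand within the hairpin at chr12:109723458-109723539, in 75.8% and 76.3% of reads at 2 months and in 77.0% and 79.7% at 18 months. The substituted form was thus the main form of this miRNA, with a mean of 3792 CPM against 1118 CPM for the unsubstituted start. miR-376c-3p carried A6G at chr12:109722775-109722775 in 41.5% and 40.9% at 2 months and in 58.6% and 62.4% at 18 months. Both old libraries stood above both young ones, and the unsubstituted form was the more abundant at 2 months and the less abundant at 18 months. miR-411-5p carried A6G at chr12:109710194-109710194 in 37.6% and 36.9% at 2 months and in 39.2% and 37.5% at 18 months, which overlapped. Reads of miR-411-5p that start 1 base later showed the same base as A5G in 34.3% to 37.2%. miR-379-5p carried A5G at chr12:109709069-109709069 in 15.4% and 16.4% at 2 months and in 18.0% and 18.8% at 18 months. In 2 months replicate 1 these shares rested on 4866 to 53639 reads, and the 95% Wilson interval for miR-376c-3p was 40.2% to 42.9%, which covers counting error only.

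Lower shares were measured at the other A-to-G sites. miR-421-3p on the X chromosome carried A14G in 10.7% to 12.9% of reads. miR-376b-5p carried A7G in 9.02% to 11.2%, and miR-337-3p carried A10G in 8.81% to 11.4%. The 18-base start of the miR-376b-5p A7G reads lies in 2 RefSeq hairpins, so this share cannot be assigned to 1 of them. miR-151-3p carried A3G in 7.19% and 6.18% at 2 months and in 5.96% and 4.48% at 18 months. miR-378a-3p carried A16G in 11.3% and 12.1% at 2 months and in 9.14% and 10.2% at 18 months. These were the 2 of the 18 sites at which both old libraries were the lower ones. miR-24-2-5p (A7G), miR-377-3p (A10G), miR-381-3p (A7G), miR-488-3p (A5G) and miR-137-3p (A14G) had mean shares of 2.36% to 5.46%.

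Across ages, the 18 A-to-G sites with a share of at least 2% were mostly higher in old brain. Both 18-month libraries exceeded both 2-month libraries at 11 sites, were lower at 2 and overlapped at 5, while over all 5660 sites 16.2% were higher and 15.3% lower without overlap. The sites are not all independent, since some are the same base read from 2 starts. miR-377-3p A10G and A13G, both among the 11, are the base at chr12:109740562-109740562. miR-411-5p A5G, among the 11, and A6G, which overlapped, also share a base. A test added after these values were seen fitted limma to the log2 odds of substituted to unsubstituted reads over the 1666 sites with at least 1 CPM of substituted reads. It called 7 of the 18 sites higher and 2 lower at an unadjusted p under 0.05, against 4.02% and 1.92% of all sites. miR-376b-5p was among the 7, and among the 11, at both A7G and A6G. Their unsubstituted seeds are 1 base apart, so these sites are also the same base of miR-376b-5p read from 2 starts. A single site of the 1666 (0.06%) passed the adjusted threshold, miR-376c-3p A6G, whose log2 odds rose by 1.13 ± 0.10 (SE; limma, adjusted p = 2.67e-05). Its log2 odds difference was 1.01 to 1.24 when any 1 library was left out, but the adjusted p was 0.213 without 2 months replicate 1 and 0.303 without 2 months replicate 2. Differences at miR-376b-3p A6G (0.19 ± 0.08, SE), miR-379-5p A5G (0.25 ± 0.10) and miR-376b-5p A7G (0.25 ± 0.11) passed the unadjusted threshold alone (limma, adjusted p = 0.727, 0.675 and 0.766). At the 2 lower sites the log2 odds differed by -0.31 ± 0.11 for miR-378a-3p A16G and by -0.39 ± 0.17 for miR-151-3p A3G (limma, adjusted p = 0.675 and 0.779). At miR-411-5p A6G the difference was 0.07 ± 0.08 (limma, adjusted p = 0.981).

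The rise of the substituted miR-376c-3p was also seen in CPM. The printed A6G read was measured at 157 and 162 CPM at 2 months and at 284 and 317 CPM at 18 months, with log2 fold change 0.91 ± 0.28 (SE; limma, adjusted p = 0.343). The unsubstituted read stood at 237 and 241 CPM at 2 months and at 212 and 193 CPM at 18 months. The most abundant member, the 21-base miR-376b-3p A6G read, was measured at 3063 and 2931 CPM at 2 months and at 2275 and 3057 CPM at 18 months, with no separation of the ages. Its other 3 abundant length and start forms, with means of 242 to 287 CPM, were each higher in both old libraries, and the 20-base form went from 204.1 and 194.5 CPM to 446 and 304 CPM (log2 fold change 0.88 ± 0.30, limma, adjusted p = 0.393). The miR-411-5p A6G read of 22 bases was lower in both old libraries, at 379 and 334 CPM against 484 and 550 CPM (log2 difference -0.53 ± 0.27, limma, adjusted p = 0.550), and so was its unsubstituted form, at 602 and 560 CPM against 774 and 914 CPM. Its 21-base A6G form had 112.4 and 107.3 CPM in the young and 91.1 and 74.9 CPM in the old libraries, and the A5G form had 349 and 351 CPM against 246.7 and 223.0 CPM. The miR-379-5p A5G read was measured at 95.2 and 114.6 CPM at 2 months and at 81.6 and 72.7 CPM at 18 months, with a log2 difference of -0.43 ± 0.30 (limma, adjusted p = 0.656).

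A substitution in the seed changes the 6mer and with it the viability assigned to that seed. 6mer seed viability is the mean viability, in percent of control, of 3 mouse cell lines given an siRNA with that seed, so that a low value stands for a toxic seed. All 11 A-to-G sites of at least 2% that lay in the seed went to a 6mer of lower viability. The change was from 66.8 to 44.2 for miR-376b-3p A6G, from 78.1 to 46.4 for miR-376c-3p A6G, from 84.3 to 47.3 for miR-411-5p A6G and from 34.4 to 15.7 for miR-379-5p A5G. The widest change of the 11 was at miR-151-3p A3G, from 93.9 to 24.0. Over all substituted hairpin sequences the direction followed the base. A-to-G substitutions in the seed lowered the viability of 833 sequences and raised it for 342 (median difference -8.9), and U-to-C lowered it for 436 and raised it for 103 (median difference -12.1). In contrast, G-to-A lowered it for 100 and raised it for 377 (median difference 13.1). These values are properties of the seeds, looked up and not measured in these brains.

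Weighted by reads, the members' 6mer seed viability was 56.0 and 55.6 at 2 months and 55.3 and 56.0 at 18 months (exact permutation p = 0.667). The read-weighted median was 55.4 and 51.7 at 2 months and 51.3 in both 18-month libraries, so that the ages did not overlap (exact permutation p = 0.33). Rows with a miRNA name had 57.8 and 58.0 at 2 months and 58.1 and 58.5 at 18 months, above the members in 4 of 4 libraries. Reads with a seed viability under 50 made up 40.4% to 43.5% of the members' reads and 25.2% to 28.2% of the reads with a miRNA name. By class, the Y RNA reads were at 59.7 to 61.3, with 2.02% to 3.15% of reads under 50. Their seeds held 0.122 to 0.218 G per read on average, against 1.63 to 1.72 over all members.

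The second most abundant member was not substituted. miR-341-3p was read mostly from a start 1 base after that of the printed named read. Rows with a miRNA name and that start averaged 44.3 CPM, of 521 CPM over all rows named miR-341. Most named reads of this hairpin therefore began at other bases. The printed later-start read was measured at 1767 and 1073 CPM at 2 months and at 820 and 1385 CPM at 18 months (log2 difference -0.37 ± 0.35, limma, adjusted p = 0.752), with overlapping ages. All members of the miR-341 hairpin, at chr12:109611500-109611595 (GRCm38.p6), summed to 1049 to 2083 CPM, of 157 sequences. Rows that carried the miR-341 name summed to 467 to 610 CPM, so that 69.2% to 77.3% of this hairpin's reads had no mature name. The seed of the printed named read has a viability of 73.7 and the seed 1 base later has 71.1.

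Other exact parts of named miRNA rows were short. Leaving out the miR-341 hairpin there were 1957 such members, and 1455 were 17 bases or fewer, below the 19 to 35 nt range that was cut from the gel. Sequences that start 3 to 7 bases into a named row numbered 1416 and summed to 1185 CPM. The most abundant was an 18-base form of miR-124-3p with the named start and 3 bases short of the named end. It was higher in both old libraries, at 64.7 and 61.7 CPM at 2 months and at 94.5 and 90.8 CPM at 18 months. The 18-base form that lacks the first 5 bases of miR-200a-3p was measured at 16.7 and 42.2 CPM at 2 months and at 37.5 and 28.9 CPM at 18 months. The 18-base form that lacks the first 6 bases of miR-30c-5p was steady, at 16.3 to 22.6 CPM. The 17-base form that lacks the first 4 bases of miR-128-3p ranged from 15.4 to 27.9 CPM.

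Y RNA fragments came almost entirely from the 3′ end. Rny1 (GENCODE M21, chr6:47788069-47788180, minus strand) gave 176 and 149 CPM in the young and 190 and 205 CPM in the old libraries, with log2 fold change 0.28 ± 0.24 (SE; limma, adjusted p = 0.676). Of its placed reads, 99.1% ended within 10 bases of the annotated 3′ end (98.5% to 99.8% by library). The printed read starts at base 84 of 112, ends 5 bases before the annotated end and was measured at 76.3, 63.4, 79.0 and 75.8 CPM in the 2 young and the 2 old libraries. Its forms of 22 and 27 bases averaged 19.6 and 14.6 CPM. Rny3 (chr6:47781624-47781725, plus strand) gave 67.9 and 73.6 CPM in the young and 76.1 and 95.9 CPM in the old libraries (log2 fold change 0.27 ± 0.26, limma, adjusted p = 0.717), and 96.4% of its placed reads ended within 10 bases of its 3′ end. Both Y RNAs were higher in both old libraries, and neither difference passed the test.

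7SL reads were filed under piRNA names, almost all under 1 of them. The piRNA entry DQ540915 held 131 CPM on average, at 129 and 140 CPM at 2 months and at 114.5 and 143.2 CPM at 18 months (log2 difference -0.07 ± 0.25, limma, adjusted p = 0.941). Its reads matched the last bases of the 300-base 7SL genes, and all of its 73 placed sequences ended within 10 bases of the 3′ end. With the 4 other piRNA names placed on 7SL, it was 97.3% of the placed reads. A large part of the DQ540915 reads placed, 47.3%, ran past the annotated end with A or U bases as the main additions, among them 23.0 CPM with a single U and 18.1 CPM with a single A. Such reads were at 0 for Rny1 and Rny3, but further bases were counted only after the last annotated base. The printed Rny1 and Rny3 reads end 5 bases before it, so a base added to them could not be counted. The 0 therefore does not show that Y RNA fragments lack added bases. Whether the further bases are encoded next to a 7SL copy or were added to the RNA was not tested.

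Small nuclear RNAs were low and their reads also favoured the 3′ part. The larger of 2 U1 entries gave 17.8 and 36.2 CPM in the young and 31.2 and 36.3 CPM in the old libraries, with 74.6% of placed reads of both U1 entries ending within 10 bases of the 3′ end. U2, again under a piRNA name (DQ551040), gave 6.01 and 8.52 CPM in the young and 12.2 and 9.48 CPM in the old libraries (log2 fold change 0.53 ± 0.33, limma, adjusted p = 0.555). Its reads lay mostly nearer the 3′ end than the 5′ end (98.4%) and none ended within 10 bases of the end, with the printed form 23 bases long and ending 24 bases before the annotated end. U12 came from 2 piRNA names with means of 3.51 and 3.47 CPM. Of the spliceosomal list, 5 entries were tested and all 5 missed the threshold, as did the 5 tested entries of the other small noncoding RNA list, which holds the Y RNAs and 7SL.

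Among snoRNAs the reads were mostly from box H/ACA RNAs. Snora41 gave 13.3 and 18.3 CPM in the young and 9.17 and 10.6 CPM in the old libraries, lower in both old libraries (log2 difference -0.61 ± 0.32, limma, adjusted p = 0.456). Of its placed reads, 92.4% ended within 10 bases of the 3′ end. Snora7a (5.88 to 9.27 CPM) and Snora30 (2.46 to 6.58 CPM) followed, and all 5 tested box H/ACA RNAs missed the threshold. U3, the box C/D RNA of ribosome processing, was at 2.46 to 6.23 CPM with 81.4% of placed reads nearer its 5′ end. No other member among those searched, of at least 18 bases and outside the hairpins, matched a box C/D snoRNA of the list. None of them matched the imprinted brain snoRNAs. The entry of Snora36b held 3.91 to 4.73 CPM of members. The most abundant miRNA name under that entry was miR-664-3p, whose rows held 366 to 425 CPM over all entries. Bc1, a neuronal RNA of dendrites, was at 1.34 and 1.76 CPM at 2 months and at 0.757 and 0.773 CPM at 18 months (log2 difference -0.52 ± 0.43, limma, adjusted p = 0.656).

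Most reads of the piRNA class lay on other RNAs or beside a miRNA. piRNAs guide PIWI proteins, chiefly in the germ line. Of 70 names, 9 held reads on a listed noncoding gene (58.7% of the class's reads) and 9 held mostly reads that differ by 1 base from a named miRNA (8.22%), such as DQ696996 beside miR-744-5p and DQ708952 beside miR-532-5p. The other 52 names held 33.1%, most of it DQ539904 with 45.9 to 74.4 CPM. The leading sequences of DQ539904 were 15 and 16 bases long with means of 21.7 and 15.8 CPM, and none of its reads was placed on a listed gene. Only reads of at least 18 bases were searched, so the source of these leading sequences was not tested. All 15 piRNA names tested missed the threshold between ages.

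The 1958 unassigned sequences summed to 545 CPM, and 7.22% of the reads of at least 18 bases matched a GENCODE transcript exactly in sense. Sequences 1 base away from miR-124-3p, a neuronal miRNA, made up 17.2% of the unassigned reads, most of them 19 bases long. The highest of these, G14A, was measured at 32.0, 27.8, 30.1 and 20.96 CPM, and U13C at 27.7, 22.0, 17.9 and 15.2 CPM, in the 2 young and then the 2 old libraries. The unsubstituted 19-base read averaged 17184 CPM. A 21-base read near no named miRNA was second in abundance, at 13.1, 29.2, 24.9 and 32.4 CPM in the same order.

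Few single member sequences were called between ages. Of 2981 members that averaged 1 CPM or more, limma called 89 higher (2.99%) and 49 lower (1.64%) at an unadjusted p under 0.05, while 5.87% and 4.23% of all sequences were called. No member passed the adjusted threshold by limma, against 0.042% of all sequences. By edgeR on the recovered reads none passed it, and by DESeq2 2 did, named here after their values were seen. These were a 21-base mir-376a read with 11.7 and 9.31 CPM in the young and 34.4 and 32.6 CPM in the old libraries (DESeq2, adjusted p = 0.00733), and a 20-base unassigned read found in 18 months replicate 2 alone, at 33.7 CPM.

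Summed by source RNA, 226 of 375 member RNAs reached 1 CPM. Limma called 9 higher (3.98%) and 11 lower (4.87%), against 3.97% and 8.14% of all RNAs, and none passed the adjusted threshold (0.505% of all RNAs; smallest adjusted p = 0.122). By edgeR none passed it either, while by DESeq2 3 did, all higher at 18 months (mir-376c, mir-101a and mir-376a, with adjusted p = 0.00507, 0.0408 and 0.0420). Limma with no filter on low values passed mir-296, which was lower (adjusted p = 0.0438). With the 1 CPM filter and without 2 months replicate 1, the log2 differences of mir-136, mir-219-2 and mir-381 were -1.42, -1.29 and -1.12. With that filter and without 2 months replicate 2, those of mir-141, mir-200a, mir-219-1 and mir-33 were 1.27, 1.17, 1.69 and 1.56. Those outside the 10 described next were named after their values were seen. All 20 were miRNA hairpins, and all 30 tested RNAs outside the hairpins missed the threshold. The median log2 difference over all RNAs was -0.12 on the authors' scale and 0.00 after rescaling by the median of ratios, which gave 18 higher and 6 lower in place of 9 and 11. Changes of member RNAs are therefore best read against a median of -0.14 over the members tested.

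The 5 largest rises were in the reads of mir-376c, mir-101a, mir-200b, mir-376a and mir-141. mir-376c members rose from 195 and 197 CPM to 343 and 386 CPM (log2 fold change 0.89 ± 0.23, SE; limma, adjusted p = 0.122), while rows named miR-376c-3p stood at 273 and 280 CPM and then at 243 and 234 CPM. mir-101a members rose from 86.9 and 110 CPM to 153 and 181 CPM (0.76 ± 0.25, limma, adjusted p = 0.242). The named miR-101a-3p had a log2 fold change of 0.64 ± 0.25. mir-376a members rose from 61.8 and 61.5 CPM to 88.2 and 132 CPM (0.80 ± 0.27, limma, adjusted p = 0.242), and the named miR-376a-3p was far higher in 18 months replicate 2, at 5411 CPM, than in the other 3 libraries (1644 to 1861 CPM). mir-200b members rose from 84.8 and 110 CPM to 164.7 and 140.8 CPM (0.65 ± 0.25, limma, adjusted p = 0.297), and mir-141 members rose from 30.6 and 50.1 CPM to 64.03 and 88.0 CPM (0.92 ± 0.30, limma, adjusted p = 0.242). The named miR-200b-3p and miR-141-3p rose too, with log2 fold changes of 0.79 ± 0.26 and 0.98 ± 0.30. Both hairpins belong to the miR-200 family of epithelial cells, and reads of mir-200c rose as well (0.63 ± 0.26, limma, adjusted p = 0.344). The 4 epithelial marker miRNAs, all of them read, summed to 26867 and 47147 CPM at 2 months and to 56254 and 63040 CPM at 18 months, and 2 of the 4 are the named forms of these same hairpins. The part of epithelial RNA in these rises was not tested. Calls were lost when single libraries were left out. Without 2 months replicate 1 the log2 fold change was 0.60 for mir-101a, 0.47 for mir-200b and 0.58 for mir-141. Without 18 months replicate 2 it was 0.64 for mir-101a, 0.51 for mir-376a and 0.70 for mir-141, and without 18 months replicate 1 it was 0.54 for mir-200b. The mir-200b call was also lost by limma without the trend.

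The 5 largest falls were in the reads of mir-411, mir-126, mir-370, mir-487b and mir-99b. mir-411 members fell from 1102 and 1168 CPM to 850 and 737 CPM (log2 difference -0.52 ± 0.23, SE; limma, adjusted p = 0.376), beside a named miR-411-5p at -0.61 ± 0.23. mir-126 members, from the main miRNA of endothelium, fell from 149.3 and 144.0 CPM to 79.6 and 117 CPM (-0.60 ± 0.26, limma, adjusted p = 0.368), and the named miR-126a-3p, the endothelial marker, stood at 9242, 8854, 2557 and 6489 CPM. The smooth muscle markers, both read, were lower in both old libraries too, at 4915 to 5033 CPM against 6415 to 6559 CPM, and the part of vessel RNA was not tested. mir-370 members fell from 65.7 and 52.2 CPM to 33.8 and 25.6 CPM (-0.97 ± 0.28, limma, adjusted p = 0.189), mir-487b members from 49.2 and 51.6 CPM to 30.9 and 25.7 CPM (-0.82 ± 0.27, adjusted p = 0.242) and mir-99b members from 47.9 and 36.1 CPM to 22.3 and 19.9 CPM (-0.95 ± 0.28, adjusted p = 0.206). The named miR-370-3p, miR-487b-3p and miR-99b-5p fell as well, with log2 differences of -1.07 ± 0.23, -1.09 ± 0.23 and -0.94 ± 0.26. The mir-411 and mir-126 calls were lost after rescaling (-0.37 and -0.45), by edgeR (-0.36 and -0.43), by DESeq2 (-0.37 and -0.44), and by limma with no filter or without the trend. The mir-411 call was also lost without each library in turn (-0.56 without 2 months replicate 1, -0.48 without 2 months replicate 2, -0.62 without 18 months replicate 1 and -0.42 without 18 months replicate 2), and the mir-126 call without 2 months replicate 1 (-0.57), 2 months replicate 2 (-0.63) or 18 months replicate 1 (-0.33). mir-487b was at -0.69 without 18 months replicate 2 and mir-99b at -0.75 without 2 months replicate 1, both no longer called. At an unadjusted p under 0.05 the calls of mir-376c and mir-370 were kept under each alternative run for them, though neither passed limma's adjusted threshold.

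Several of the hairpins called lower lie together. RefSeq symbols placed 141 of the 196 hairpins tested, and 35 of these (24.8%) lay in the imprinted region from Meg3 to Mirg at chr12:109541001-109749460. Of the 11 hairpins called lower 7 were placed, and 6 lay there (mir-370, mir-409, mir-411, mir-431, mir-487b and mir-668). The rest of the 11 were mir-126, mir-296, mir-99b, mir-467d and mir-669a-1, which were placed elsewhere or not placed. The share in the region thus describes the placed hairpins only. mir-376a and mir-376c were 2 of the 8 placed among the 9 called higher. The region thus held hairpins called in both directions.

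The other marker lists bore on fewer results. The 4 neuronal and brain markers summed to 178482 to 208820 CPM and the oligodendrocyte markers to 4119 to 6565 CPM, with overlapping ages, and the same held for red blood cell (1698 to 3374 CPM) and choroid plexus markers (2116 to 2809 CPM). Within the brain list, miR-124-3p and miR-138-5p were each lower in both old libraries, while miR-9-5p and miR-128-3p overlapped. The sum of the 3 leukocyte markers was lower in both old libraries, at 2638 to 2723 CPM against 2963 to 3358 CPM. Of these only miR-150-5p was lower by itself, at 2344 and 2370 CPM against 2654 and 2832 CPM. The ages overlapped for miR-142a-3p and miR-223-3p. None of the marker miRNAs was at 0.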

How the data were processed

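Ago-bound small RNA (19 to 35 nt, gel-extracted) of 4 libraries was sequenced by the authors after Ago pull-down. The authors trimmed reads (Trim Galore per the labels, version not given in the sources used here), removed rare reads and artificial sequences, annotated each sequence by BLAST and deposited CPM, reads scaled to 1000000 per library. The deposited table also has 2 score columns, the sum of the CPM values and the 6mer seed viability looked up by the authors. All per-sample columns belonged to a labelled sample (0 without one).

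Whole reads were recovered from the CPM steps (100.0% of values, within 0.0006 CPM). Features that averaged 1 CPM or more were compared with limma 3.58.1 (intensity trend) on log2(CPM + 1), which understates the change of low features, over all sequences or RNAs with Benjamini-Hochberg adjustment. Calls used an unadjusted p under 0.05, as in the study's methods. Single values used two-sided exact permutation tests (scipy 1.17.1). edgeR 4.0.16 and DESeq2 1.42.0 on recovered reads were alternatives. A test of substitution shares over all sites was added after the data were examined. On simulated counts, 42% of 2-fold and 90% of 4-fold changes of 14287 sequences were found, and 46% and 86% for 1585 RNAs. Members outside the miRNA class with at least 18 bases were searched for exact matches in GENCODE M21 transcripts (GRCm38), and no genome sequence was used. Under annotation names with such a match, reads were then placed by their longest exact start of at least 15 bases. Replicates are libraries that the labels number, so p-values measure the spread between 2 libraries per age. Members and lists were chosen with earlier results of these data known.

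Named in the text were the 10 most abundant members, the 3 most abundant of each class with at least 1% of the members' reads, the 5 largest rises and 5 largest falls in CPM among source RNAs past the test without overlap, and the RNAs of fixed lists. Substitution sites, exact parts and other hairpins were named after their values were seen.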

Additional observations from a re-analysis of the deposited data

How the results depend on the processing

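The same-numbered libraries come from different mice, and their deviations correlated at 0.0356 over sequences and 0.0700 over RNAs, so the number is only a name. With the replicate block, calls were 158 member sequences (89 + 49 without it), 23 source RNAs (20) and 104 substitution sites (99), of which 11 sites passed the adjusted threshold. With no filter, 539 member sequences and 31 source RNAs were called, and above a 10 CPM mean, 11 and 13, since other numbers were tested. DESeq2 called 71 sequences, for which the cause was not tested, and 18 source RNAs (12 higher, 6 lower), and edgeR 22 (16 and 6). With adjusted p, limma with all libraries and the 1 CPM filter called 0 of either, and DESeq2 2 sequences and 3 source RNAs. Leaving out 1 library gave 94 to 144 sequences, 15 to 26 source RNAs and 71 to 108 sites. By direction, 48 sequences were higher without 18 months replicate 2 (89 with all), and source RNAs were 4 higher and 16 lower without 18 months replicate 2 and 16 higher and 10 lower without 2 months replicate 2 (9 and 11 with all). Limma without the trend called 4 higher and 12 lower. Differences that changed sign were small: the members' share of reads (-0.00424 points) was 0.0148 without exact parts and 0.0160 rescaled, and -0.0763 to 0.0678 with 1 library left out. Seed viability (-0.17) was -2.25 as a read-weighted median, 0.22 with each sequence counted once, and -0.52 to 0.18 with 1 library left out. The hairpin total was 146 CPM higher when rescaled (-49.1 as deposited) and -688 to 590 CPM with 1 library left out. With at least 1 CPM only, the unassigned total differed by 3.56 CPM (-36.5 over all) and the small nuclear and nucleolar total by -2.62 CPM (2.76 over all). With 1 library left out these were -83.6 to 10.7 CPM and -12.1 to 17.6 CPM, the piRNA total -25.8 to 5.71 CPM and the miscRNA total 31.4 to 67.3 CPM. A single library per age has no spread of its own and was assumed to vary like the other age. Shares at the 4 printed sites were alike with 15-base starts. Depth limits members near 3 reads.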

Other observations

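Substituted hairpin reads were not spread evenly along the read. Position 11 held 2355 sequences, against 903 to 1045 at each of the other positions from 5 to 16. The excess was seen for 11 of the 12 substitution types, such as C-to-G with 224 sequences against a median of 15 at the other positions and U-to-A with 203 against 17, and A-to-G was the exception with 135 against 218. Reads at position 11 summed to 1420 to 1496 CPM in each library.

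Unassigned sequences read in 1 library alone summed to 95.8 to 177 CPM in 3 libraries and to 205 CPM in 18 months replicate 2. That library held 19 such sequences of at least 1 CPM, with the highest at 33.7 CPM, against 1 to 6 in the others.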
